A study of Mus musculus with 6 samples.

Results

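Kcnip3, Whrn and Msh5 are 3 genes with no common pathway that differed strongly between microglia of lupus-prone MRL/lpr mice and those of MRL/mpj mice. They were picked from the table of raw gene counts by symbol, for strain differences that were large and closely repeated among replicates and that lay outside immune pathways. They are 3 of the 55401 genes in that table and of the 19554 that had enough counts to be tested. All 3 were matched by Ensembl identifier (ENSMUSG00000079056 for Kcnip3, ENSMUSG00000039137 for Whrn and ENSMUSG00000007035 for Msh5). The strain difference of these genes and the closeness of their replicates were the reasons for choosing them, so both are described below without a test. Tests are given only for other genes, namely their partners and paralogs and their neighbours on the chromosome.

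The study profiled brain microglia by RNA sequencing in 3 MRL/lpr and 3 MRL/mpj libraries, all from untreated mice aged 6 weeks. The lpr mutation lies in Fas, and MRL/lpr mice, which bear it, develop a lupus-like disease, whereas MRL/mpj mice have the MRL background without it. Cells were dissociated from perfused brains with collagenase, enriched on Percoll and selected on magnetic beads for CD11b, a surface protein of microglia that other myeloid cells also carry. The study counts mice as its n, but the labels number the libraries within each strain without tying each to an animal, so p-values measure only the spread between these libraries.

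Kcnip3 encodes a calcium-binding protein that is also known as KChIP3, calsenilin and DREAM. It attaches to the pore subunits of Kv4 potassium channels, binds presenilins, and in the nucleus binds DNA and represses transcription until calcium releases it. Whrn encodes whirlin, a scaffold protein with PDZ domains that is best known from the stereocilia of hair cells and from photoreceptors, where it holds Usher syndrome proteins such as ADGRV1. Msh5 encodes a MutS homolog that pairs with MSH4 on recombination intermediates in meiosis and, like MSH4, is not a mismatch repair factor. None of the 3 is an established microglial marker.

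On GRCm38, the build named in the submitters' processing notes, all 3 genes lie on the minus strand. In the GENCODE M21 annotation Kcnip3 is at chr2:127456498-127522094, a span of 65597 bp with 4 transcripts. Whrn is at chr4:63414910-63495991, a span of 81082 bp with 17 transcripts. Msh5 is at chr17:35028605-35046745, a span of 18141 bp with 12 transcripts, inside the major histocompatibility (H2) region. The counts are sums per gene, so they do not say which transcripts or start sites were used.

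The 250 bases before the outermost RefSeq start of each gene (GRCm38.p6, minus strand, 5′ to 3′) are shown because the genes moved in different directions, Kcnip3 and Msh5 being higher and Whrn lower in MRL/lpr microglia. They are chr2:127522095-127522344 for Kcnip3, chr4:63495992-63496241 for Whrn and chr17:35046623-35046872 for Msh5. The Msh5 stretch runs past the GENCODE start of that gene at 35046745. Its later part, with the TGACG and the ATTGG, therefore lies inside the GENCODE span. Capitals mark 3 motifs searched on both strands, the CCAAT box (CCAAT, or ATTGG where it lies on the other strand), the first letters of the cyclic AMP response element (TGACG, or CGTCA on the other strand) and an interferon-gamma-activated-site-like motif (TTCNNNGAA).
Kcnip3: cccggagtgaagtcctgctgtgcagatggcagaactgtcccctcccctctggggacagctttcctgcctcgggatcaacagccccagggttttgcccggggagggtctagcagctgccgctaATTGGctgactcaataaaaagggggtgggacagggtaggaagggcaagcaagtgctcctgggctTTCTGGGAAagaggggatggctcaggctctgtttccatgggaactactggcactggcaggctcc
Whrn: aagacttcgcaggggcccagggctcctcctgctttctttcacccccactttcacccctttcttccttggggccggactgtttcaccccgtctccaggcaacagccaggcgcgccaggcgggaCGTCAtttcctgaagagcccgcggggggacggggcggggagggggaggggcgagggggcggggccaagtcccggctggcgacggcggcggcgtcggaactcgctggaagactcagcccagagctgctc
Msh5: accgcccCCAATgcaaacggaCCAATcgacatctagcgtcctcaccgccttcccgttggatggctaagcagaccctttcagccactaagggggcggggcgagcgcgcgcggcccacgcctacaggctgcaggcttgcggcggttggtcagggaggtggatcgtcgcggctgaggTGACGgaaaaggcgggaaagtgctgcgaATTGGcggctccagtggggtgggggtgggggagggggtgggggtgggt

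The Kcnip3 stretch held 1 CCAAT box and 1 TTCNNNGAA match, TTCTGGGAA, which began 64 bases before the start. A TTCNNNGAA match was present in 7.02% and a CCAAT box in 33.8% of 32851 RefSeq promoters of the same length. The Whrn stretch held 1 TGACG, a motif present in 17.8% of promoters, and the Msh5 stretch held 1 TGACG and 3 CCAAT boxes. GTCA, the core letters that DREAM binds, occurred at least once in each of the 3 stretches, but also in 80.2% of all promoters, and 1 GTCA in each of the Whrn and Msh5 stretches overlapped the TGACG. The GC box GGGCGG occurred 2 times each in the Whrn and Msh5 stretches and not in that of Kcnip3 (32.7% of all promoters). TATAAA (12.4% of promoters) and the core of the interferon-stimulated response element (2.98%) had no match in any of the 3. The Whrn and Msh5 stretches were rich in CpG, with 21 and 22 CpG dinucleotides against 4 for Kcnip3. RefSeq lists 2 further Kcnip3 starts inside the gene, and the 250 bases before the innermost one held 23 CpG.

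The libraries were similar in depth, with 45481609 to 49846634 counts each, and no 2 replicates agreed within counting noise. Counts piled up at multiples of 4 (1138 to 1288 genes with 4 counts against 320 to 415 with 3), so the number of independent reads behind a count is smaller than the count. MRL/lpr replicate 3 stood apart in that 1 gene took 6.38% of its counts, against 1.09% to 1.95% for the top gene elsewhere. Cx3cr1, a microglial receptor, was at 132706 counts for MRL/lpr replicate 2, where replicates 1 and 3 of that strain were at 10645 and 10334. Fas counts overlapped between the strains (461, 282 and 298 in MRL/lpr, 426, 432 and 362 in MRL/mpj) and so gave no check of the labels. Xist counts ran from 8886 to 11319 in MRL/lpr and from 27 to 38 in MRL/mpj, and 4 Y-linked genes together had 8408 to 11783 and 13155 to 15046. The study's methods describe female mice and the labels give no sex, so strain and the sex makeup of the libraries cannot be told apart. The 3 genes are autosomal, and whether their levels differ with sex was not tested.

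Kcnip3 was low in MRL/mpj microglia and far higher in MRL/lpr microglia. The MRL/lpr libraries held 2233, 2172 and 1909 counts of it, and the MRL/mpj libraries held 82, 86 and 88. In CPM, which are counts scaled to a common library size with TMM factors, MRL/lpr stood at 47.5, 46.1 and 45.7 and MRL/mpj at 1.596, 1.72 and 1.69. The groups did not overlap, and the lowest MRL/lpr library was 26.6 times the highest MRL/mpj library. The means were 46.4 ± 0.945 and 1.67 ± 0.0652 CPM (SD, n = 3 each), a 27.8-fold difference, and the fitted log2 fold change was 4.80 ± 0.11 (SE). That value ranked 92 among all increases in MRL/lpr by size. The gene stood at percentile 78.7 of the tested genes by mean CPM in MRL/lpr and at percentile 30.6 in MRL/mpj. The replicates lay closer together than those of the median gene of like level in both strains, but such closeness was part of the reason for the choice. The coefficient of variation was 2.03% in MRL/lpr, where 2257 genes of like level had a median of 8.61%, and 3.91% in MRL/mpj, where the median of 1635 such genes was 25.7%. Counting noise alone is expected to give spreads at least this large at such counts, most clearly at the 82 to 88 counts of MRL/mpj. The 2 values therefore do not measure how steady the level was. In these bulk samples more cells of a type cannot be told apart from more RNA per cell.

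Whrn was the one that was lower in MRL/lpr microglia. Libraries of MRL/lpr held 1689, 1529 and 1543 counts, and those of MRL/mpj held 11509, 12410 and 12387. On the CPM scale these were 35.9, 32.5 and 36.9 against 223.9, 248 and 238, again without overlap. The means were 35.1 ± 2.33 and 237 ± 12.2 CPM (SD, n = 3 each), so that MRL/mpj microglia held 6.74 times the level of MRL/lpr microglia, with a fitted log2 fold change of -2.75 ± 0.08 (SE). The lowest MRL/mpj library was 6.07 times the highest MRL/lpr library. Whrn stood at percentile 97.0 of tested genes in MRL/mpj and still at percentile 73.7 in MRL/lpr. Its replicate coefficient of variation was 6.63% in MRL/lpr (9.24% for the median of 2373 genes of like level) and 5.15% in MRL/mpj (3.56% for 581 genes).

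Msh5 was the most abundant of the 3 in MRL/lpr microglia. MRL/lpr libraries held 14556, 14397 and 12747 counts and MRL/mpj libraries 2165, 2304 and 2601, or 309.6, 306 and 305 CPM against 42.1, 46.1 and 49.99 CPM. The means were 307 ± 2.45 and 46.1 ± 3.93 CPM (SD, n = 3 each), a 6.66-fold difference with a fitted log2 fold change of 2.74 ± 0.08 (SE). The lowest MRL/lpr library was 6.10 times the highest MRL/mpj library. The MRL/lpr replicates were almost identical, with a coefficient of variation of 0.798% against a median of 7.49% for 455 genes of like level. That spread, too, is no larger than counting noise is expected to give at these counts. The MRL/mpj replicates spread more, at 8.53% (5.96% for 2346 genes of like level). Whrn and Msh5 thus differed by nearly the same factor in opposite directions, and ranked 218 among decreases and 256 among increases by size. By the call rule of the study (adjusted p under 0.05 together with a log2 fold change of 1 or more in either direction), 914 genes or 4.67% of those tested were called up in MRL/lpr and 716 or 3.66% were called down. Groups of libraries failed to overlap in 19.6% of tested genes with MRL/lpr higher and in 19.4% with MRL/lpr lower.

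**Figure D1:**
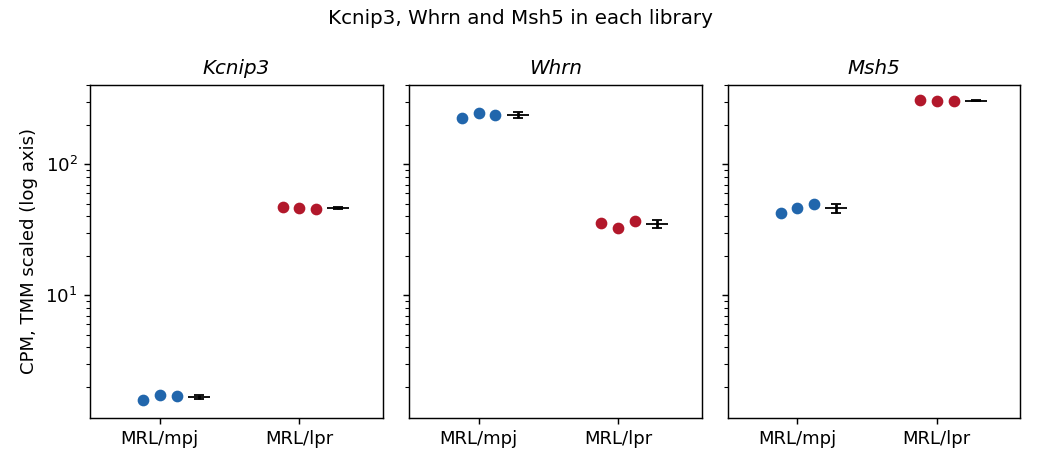
TMM-scaled counts (CPM, log axis) of Kcnip3, Whrn and Msh5 in each of the 3 MRL/lpr and 3 MRL/mpj libraries; points are libraries, horizontal bars are means and error bars are SD. The strains do not overlap for any of the 3 genes, and the gap is widest for Kcnip3, at 46.4 against 1.67 CPM.

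Levels of different genes were compared per length, in the deposited FPKM. In MRL/lpr the order was Msh5 (48.83, 48.2 and 45.49 FPKM), Kcnip3 (11.67, 11.33 and 10.62) and Whrn (4.26, 3.84 and 4.14). In MRL/mpj it was Whrn (28.36, 31.48 and 30.18 FPKM), Msh5 (7.07, 7.74 and 8.4) and Kcnip3 (0.41, 0.44 and 0.44). No neighbours in either order overlapped between libraries. Whrn therefore had the lowest level of the 3 in one strain and the highest in the other. The ratios of mean FPKM between the strains were 26.1 for Kcnip3, 7.35 for Whrn and 6.14 for Msh5. The values were MRL/lpr means of 11.2 ± 0.536, 4.08 ± 0.216 and 47.5 ± 1.77 FPKM and MRL/mpj means of 0.43 ± 0.0173, 30.01 ± 1.57 and 7.74 ± 0.665 FPKM (SD, n = 3 each).

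The partners and relatives of the 3 proteins were examined next, in 7 lists of 74 genes of which 56 could be tested. At an adjusted p under 0.05 (edgeR's quasi-likelihood test, Benjamini-Hochberg adjustment), 7 were higher and 7 lower in MRL/lpr, together 25% of those tested. Over all tested genes 11.1% were higher and 9.06% lower, together 20.2%. With the fold change minimum as well, 2 were called up and 2 down, or 7.14% against 8.34% of all genes. The median log2 fold change was -0.00 over the lists and -0.01 over all genes.

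Among genes of the KChIP and Kv4 channel complex, 1 of 7 tested was lower, none was higher and the median log2 fold change was -0.60. Kcnd1, a pore subunit to which KChIP proteins bind, was the channel gene with the highest level in these cells. It had 3000, 3105 and 3079 counts in MRL/lpr and 5158, 4941 and 5233 in MRL/mpj, or 10.96 against 17.6 FPKM, and it fell in MRL/lpr (log2 fold change -0.56 ± 0.08 SE, adjusted p = 0.000884, edgeR). Kcnd3, a second pore subunit, had 91, 484 and 537 counts against 98, 114 and 95. MRL/lpr replicate 1 was at the MRL/mpj level and the other MRL/lpr libraries far above it, so the difference did not pass the test (log2 fold change 2.06 ± 0.66 SE, adjusted p = 0.0814, edgeR). Without MRL/lpr replicate 1 its log2 fold change was 2.53 (adjusted p = 0.000141, with a range of 0.000141 to 0.216 over the alternatives). The other KChIP genes were barely detected. Kcnip2 had 21 to 65 counts in all libraries, Kcnip4 had 11 to 33 and Kcnip1 had 8 in 1 MRL/lpr library, 13 in 1 MRL/mpj library and none in the other 4. Kcnip3, with 1909 to 2233 counts in MRL/lpr, was the KChIP gene with by far the most counts in that strain. In MRL/mpj, Kcnip3 was itself low, with 82, 86 and 88 counts beside 55, 57 and 65 of Kcnip2.

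The wider family of neuronal calcium sensors, EF-hand proteins like Kcnip3, had 1 of 7 tested genes higher and 3 lower (median log2 fold change -0.66). Ncald, neurocalcin delta, fell from 341, 259 and 207 counts in MRL/mpj to 122, 93 and 79 in MRL/lpr (log2 fold change -1.29 ± 0.26 SE, adjusted p = 0.00741, edgeR). Hpca (hippocalcin) and Hpcal4 were also lower, with log2 fold changes of -0.84 ± 0.23 and -0.66 ± 0.17 SE (adjusted p = 0.0324 and 0.0262). Guca1b, a guanylate cyclase activator, was higher at 37, 51 and 55 counts against 3, 8 and 19 (log2 fold change 2.43 ± 0.70 SE, adjusted p = 0.037). When single libraries were left out, the call of Guca1b was lost in 5 of 6 cases and kept without MRL/mpj replicate 3, where its log2 fold change was 3.25. That of Hpca was likewise lost in all but the fit without MRL/mpj replicate 3, and that of Hpcal4 in 4 of 6, the exceptions being the fits that omitted MRL/lpr replicate 3 or MRL/mpj replicate 1. These genes were of low level, and summed neuronal markers moved with the 3 that fell, at 27.2 to 33.0 CPM in MRL/lpr and 45.3 to 50.8 CPM in MRL/mpj (8 genes, 2 lower by adjusted p, no defining marker at 0 in a whole strain). The part of neuronal RNA in these differences was not tested.

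Presenilins and the other γ-secretase genes, whose products include the presenilins that calsenilin binds, were mostly not past the test. Psen2 was at 3.39 and 3.70 FPKM in MRL/lpr and MRL/mpj. Of 7 tested genes, only Aph1c, a rodent paralog of the APH1 subunit, passed the test. It had 115, 139 and 82 counts in MRL/lpr against 247, 261 and 301 (log2 fold change -1.10 ± 0.23 SE, adjusted p = 0.00821, edgeR). Aph1c and Aph1b are near-identical, so counting could have split their reads.

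Genes known to carry DREAM sites or to be regulated through it had 3 of 7 tested higher in MRL/lpr and none lower (median log2 fold change 0.43). Over all tested genes 11.1% were higher and 9.06% lower. The part of DREAM in these differences was not tested. Fos, an immediate-early transcription factor, had 131769, 131385 and 103398 counts in MRL/lpr and 78092, 80068 and 77777 in MRL/mpj (log2 fold change 0.81 ± 0.07 SE, adjusted p = 3.47e-05, edgeR). Nr4a1, an immediate-early nuclear receptor, with 59408, 72672 and 59113 counts against 35035, 36576 and 36125, rose by a log2 fold change of 1.002 ± 0.08 SE (adjusted p = 2.44e-05). Tnfaip3, which encodes the NF-κB inhibitor A20, had 58179, 70333 and 53356 counts against 48485, 36565 and 46663 (log2 fold change 0.64 ± 0.11 SE, adjusted p = 0.00271), and without MRL/lpr replicate 3 it no longer passed (adjusted p = 0.0585, the highest over the alternatives, the lowest being 4.27e-07). Pdyn, the prodynorphin gene and the classical DREAM target in neurons, was of low level, with 56, 77 and 68 counts against 66, 34 and 70, and overlapped between strains.

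Usher and stereocilia genes, the known context of whirlin, split into genes expressed in microglia and genes close to absent. Of 17 listed, 11 were tested, with 3 higher, 1 lower and a median log2 fold change of 0.10. Some of these genes were near zero. Adgrv1, a receptor that whirlin holds, was at 0.0767 and 0.08 FPKM, Pdzd7 had 4 to 22 counts in all libraries, and Myo15, the motor that carries whirlin to the tips of stereocilia, had 0, 0 and 3 counts against 16, 12 and 12. Others were clearly expressed, such as the scaffold genes Mpp1 (4.50 and 4.40 FPKM in MRL/lpr and MRL/mpj) and Cask (4.76 and 6.52 FPKM) and the calcium-binding protein gene Cib2 (4.62 and 5.54 FPKM), none of which passed the test. Cdh23, a cadherin of the tip links, had 8526, 8349 and 9246 counts in MRL/lpr and 7141, 7205 and 7484 in MRL/mpj, at 9.73 and 7.81 FPKM (log2 fold change 0.44 ± 0.09 SE, adjusted p = 0.00727, edgeR). Myo7a, an unconventional myosin of stereocilia, was also higher, at 9.29 against 7.12 FPKM (log2 fold change 0.51 ± 0.09 SE, adjusted p = 0.0031). Espn, an actin bundler, was higher with 168, 142 and 126 counts against 89, 69 and 107 (log2 fold change 0.89 ± 0.26 SE, adjusted p = 0.0411), a call that was lost when any 1 of the 6 libraries was left out. Eps8, an actin-capping protein found with whirlin at stereocilia tips, fell in the same direction as Whrn, from 1633, 1418 and 2066 counts in MRL/mpj to 843, 725 and 775 in MRL/lpr (log2 fold change -0.94 ± 0.14 SE, adjusted p = 0.00124).

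Msh4, whose product is the partner of MSH5, had no counts in 5 libraries and 12 in MRL/lpr replicate 2. Of 16 listed genes of meiotic crossover and synapsis, 9 were tested and none passed the test (median log2 fold change 0.15, edgeR). Hfm1, Rnf212, Rnf212b and Spo11, which act with or before MSH4 and MSH5 in meiotic recombination, were at 0 in all 6 libraries. Other genes of that list were detected. Prdm9 had 1571, 1325 and 1194 counts in MRL/lpr and 1317, 1338 and 1252 in MRL/mpj, at 5.96 and 5.49 FPKM. Sycp1 had 137, 137 and 84 counts against 155, 127 and 213, and overlapped between the strains. Somatic mismatch repair genes were expressed and much lower than Msh5 in MRL/lpr. Msh6 was at 6.09 and 6.19 FPKM in MRL/lpr and MRL/mpj and Msh3 at 0.903 and 0.877 FPKM. Of 8 tested, 1 passed, Mlh3, a MutL homolog that acts at crossovers, with 459, 589 and 542 counts against 836, 844 and 845 (log2 fold change -0.49 ± 0.14 SE, adjusted p = 0.0333, edgeR). That call was kept without MRL/lpr replicate 3 and lost when any other single library was left out.

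**Figure D2:**
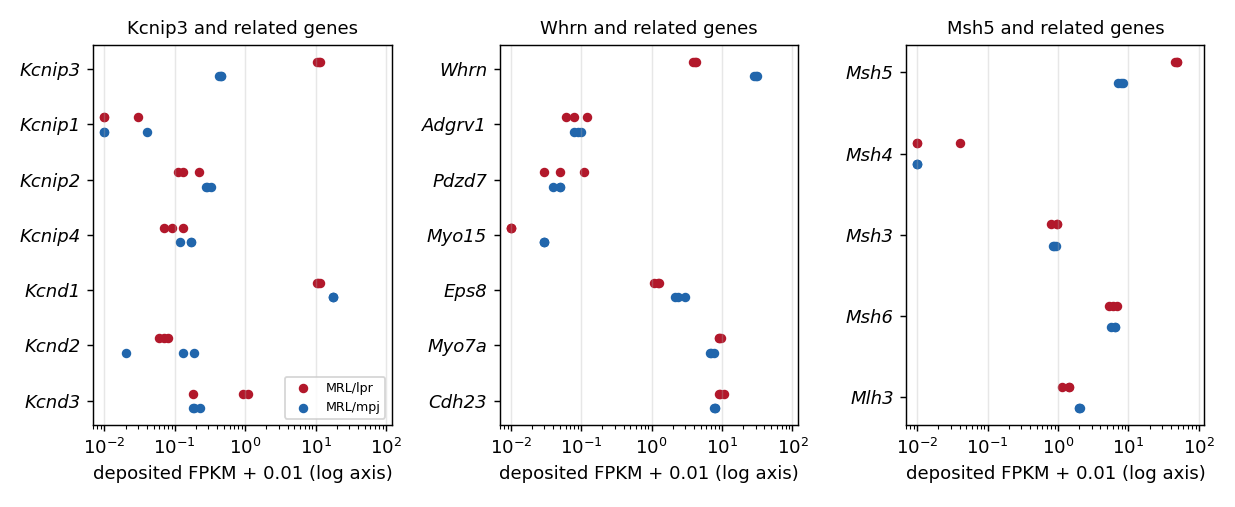
Deposited FPKM of Kcnip3, Whrn, Msh5 and related genes in each library by strain, one point per library, with 0.01 added so that zeros show on the log axis. Msh5 and Whrn in the strain where each is high stand well above most relatives, while Msh4 and the KChIP paralogs lie near or at the bottom of the scale.

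The chromosome surroundings were then described, because position was not used in choosing the genes. Distances are between gene starts in GENCODE M21, and neighbours are tested genes that start within 1 Mb of the member. Around Kcnip3, 33 neighbours were tested, and 4 were called up and 1 down in MRL/lpr, or 15.2% against 8.34% of all genes. Around Whrn, 18 were tested and 2 were called up, or 11.1%. Around Msh5, 126 were tested, with 22 up and 8 down, or 23.8%. The median log2 fold change of the neighbours was -0.04 around Kcnip3, 0.09 around Whrn and 0.27 around Msh5, beside -0.01 for all genes. Groups of libraries failed to overlap in 39.4% of the Kcnip3 neighbours, 50% of the Whrn neighbours and 55.6% of the Msh5 neighbours, against 39% of all genes. Within 2 Mb the called shares were 12.5% of 64, 7.69% of 26 and 18.5% of 184 genes, so that around Whrn the share was below the 8.34% of all genes.

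The gene next upstream of Kcnip3, Prom2, was also higher in MRL/lpr. Prom2, which encodes the membrane glycoprotein prominin-2, lies on the same strand and ends 4378 bp before the Kcnip3 start. It had 91, 107 and 115 counts in MRL/lpr and 4, 4 and 15 in MRL/mpj (log2 fold change 3.93 ± 0.56 SE, adjusted p = 0.000944, edgeR), and without MRL/mpj replicate 3 the log2 fold change was 4.83. Its level was far below that of Kcnip3, at 2.32 ± 0.410 against 0.149 ± 0.121 CPM (SD, n = 3 each). Gpat2, a glycerol-3-phosphate acyltransferase gene 96.9 kb away, had 52, 97 and 89 counts against 2, 17 and 15 (adjusted p = 0.0123). Mall, a MAL-family proteolipid gene 208 kb away, had 431, 376 and 395 counts against 159, 92 and 83 (log2 fold change 2.03 ± 0.27 SE, adjusted p = 0.000595). Dusp2, a MAP kinase phosphatase gene 186 kb away, rose by a log2 fold change of 0.74 ± 0.08 SE (adjusted p = 0.000271). Fahd2a, the next gene downstream of Kcnip3, had 130, 145 and 173 counts against 297, 261 and 153 and did not pass the test (adjusted p = 0.31). Stard7, Adra2b, Zfp661, Mrps5 and Mal, which complete the 10 nearest tested genes, did not pass either.

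No neighbour of Whrn within 1 Mb was called down with it. Akna, an AT-hook transcription factor gene, lies downstream of Whrn on the same strand. The starts are 92.6 kb apart, with a gap of 11555 bp between the genes. Akna was higher in MRL/lpr, with 13025, 13862 and 12817 counts against 11211, 11500 and 11931 (log2 fold change 0.37 ± 0.06 SE, adjusted p = 0.00282, edgeR). Atp6v1g1, a proton pump subunit gene 48780 bp upstream on the opposite strand, was lower by a small margin (log2 fold change -0.26 ± 0.08 SE, adjusted p = 0.0427), and only without MRL/lpr replicate 2 did that hold when single libraries were left out. The 2 neighbours called, Orm2 and Orm3, encode orosomucoids, acute-phase plasma proteins, and lie 134 and 140 kb away. Orm2 had 101, 132 and 110 counts in MRL/lpr against 35, 14 and 24 (log2 fold change 2.41 ± 0.40 SE, adjusted p = 0.00232). Orm3 had 40, 46 and 41 against 3, 6 and 18 (log2 fold change 2.40 ± 0.72 SE, adjusted p = 0.0431). Under omission of single libraries, the Orm3 call was kept without MRL/mpj replicate 3, at a log2 fold change of 3.36, and lost when any other single library was left out. Orosomucoid genes are near-identical copies, so the split of reads among them is uncertain.

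Msh5 shared its direction with the gene just beyond its 3′ end. Sapcd1, a little-studied coding gene on the same strand, begins 588 bp past the end of Msh5 and had 1273, 1175 and 870 counts in MRL/lpr against 206, 229 and 144 in MRL/mpj (log2 fold change 2.68 ± 0.20 SE, adjusted p = 1.76e-05, edgeR). Its fold change was thus close to the 2.74 of Msh5, at a lower level of 24.3 ± 3.18 against 3.79 ± 0.927 CPM (SD, n = 3 each). Vwa7, on the opposite strand, overlaps Sapcd1 by 783 bp and had 213, 291 and 289 counts against 146, 101 and 151 (log2 fold change 1.18 ± 0.25 SE, adjusted p = 0.00846). The strand setting of the counting is not given in the sources used here, so reads from the overlap cannot be told apart. On the other side, Clic1, a chloride intracellular channel gene 3220 bp from the Msh5 start on the opposite strand, had 8770, 8813 and 8168 counts against 8764, 8186 and 8623 and did not pass the test (log2 fold change 0.19 ± 0.06 SE, adjusted p = 0.0573). Without MRL/lpr replicate 3 it did, at an adjusted p of 0.0293, which was the lowest over the alternatives, the highest being 0.525.

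Further out, Vars, the valyl-tRNA synthetase gene, rose by a log2 fold change of 0.83 ± 0.09 SE (adjusted p = 0.000156, edgeR) and the antisense gene Gm10501 by 1.34 ± 0.16 SE (adjusted p = 0.000325). Ddah2, a dimethylargininase gene, was lower by a log2 fold change of -0.34 ± 0.09 SE (adjusted p = 0.0236), and Ly6g6e, a Ly6 family gene, by -1.44 ± 0.44 SE (adjusted p = 0.049). When single libraries were left out, both of the last calls held only without MRL/lpr replicate 3. Among the 30 called neighbours of Msh5 within 1 Mb were genes of antigen presentation and complement, such as H2-Aa, H2-Eb1, C4b and Cfb among those up and H2-D1 and H2-Q7 among those down, chosen here after their values were seen. The largest fold changes among these neighbours were at other H2 genes. H2-Ea-ps had 1966, 1936 and 2103 counts in MRL/lpr against 87, 106 and 76 in MRL/mpj. H2-Eb2 had 0, 18 and 6 against 494, 427 and 504, and H2-Q6 had 50, 38 and 42 against 2067, 2208 and 1971. H2-Q5 was at 0 in all MRL/lpr libraries and had 156, 182 and 23 counts in MRL/mpj. The cause of these differences was not tested. The H2 and C4 genes have close paralogs, so the split of reads among them is uncertain.

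**Figure D3:**
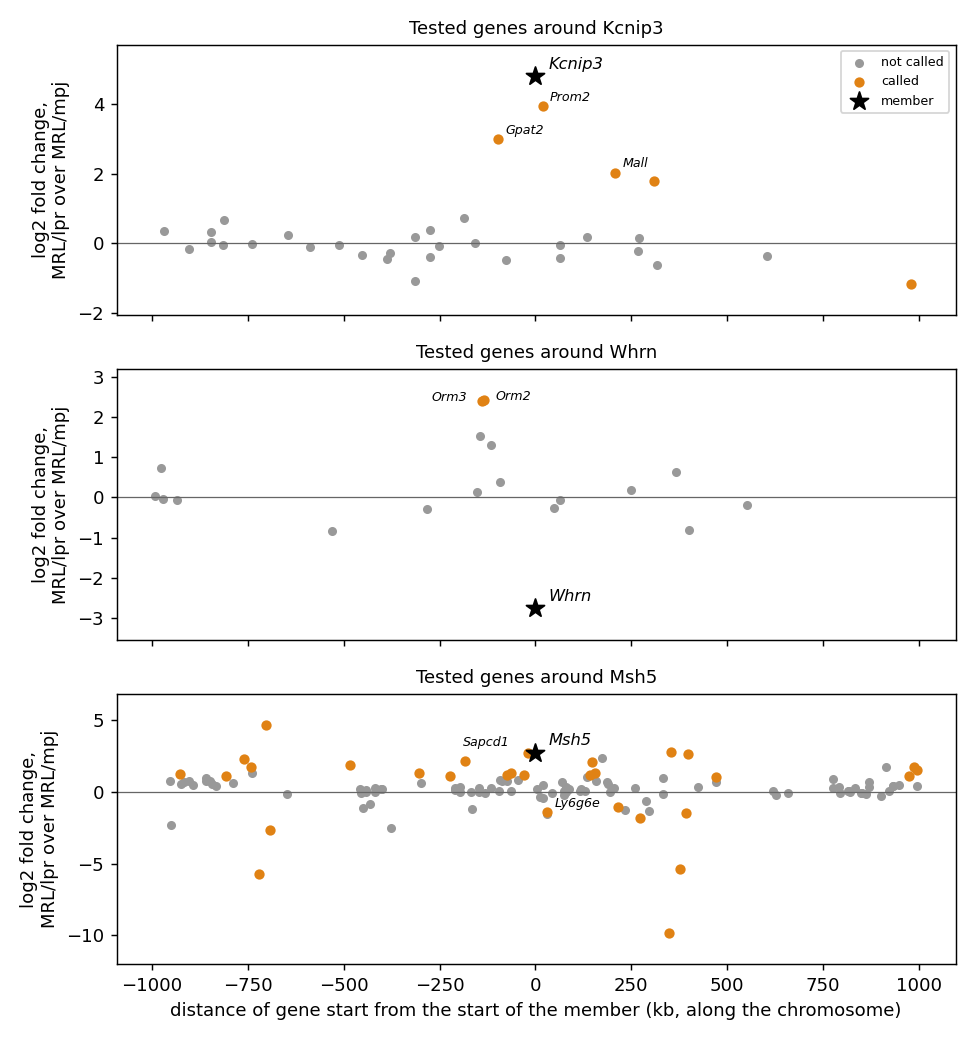
Fitted log2 fold change (MRL/lpr over MRL/mpj) of tested genes by distance of their start from that of Kcnip3, Whrn or Msh5 in kb, with called genes (adjusted p under 0.05 and a log2 fold change of 1 or more in either direction) in colour. Prom2 at 3.93 and Sapcd1 at 2.68 lie beside the members that they flank, and no neighbour of Whrn is called down. Fold changes of genes at 0 in a strain depend on the prior count.

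Over the 6 libraries the log2 CPM of the 3 genes ran together, with Pearson's r of 0.999 between Kcnip3 and Msh5, -0.998 between Kcnip3 and Whrn and -0.996 between Msh5 and Whrn. These values describe little more than 2 separate groups of libraries, since 278, 161 and 268 of 14919 genes had an r over 0.99 with Kcnip3, Whrn and Msh5. The genes most like Kcnip3 were 6030468B19Rik (r = 0.9998, at 0 in all MRL/mpj libraries), Alpk1, Mki67, Igkv9-124 and Mpeg1. Those most like Whrn were Serpinf1 (r = 0.9995), H2-Q6, Ccdc62, Itgax and Trpm2. Those most like Msh5 were Kdm6b (r = 0.9998), Ctnna1, Alpk1, Zbp1 and Rnf213. Of these only H2-Q6 for Whrn was also a chromosome neighbour of a member, on chromosome 17 with Msh5.

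Microglial markers were abundant in all libraries, with a sum over 8 genes of 21508 to 24032 CPM in MRL/lpr and 23805 to 24529 CPM in MRL/mpj, and 1 of the 8 was lower by adjusted p. Markers of other cells moved with strain too. B and plasma cell markers summed to 17.1 to 20.5 CPM in MRL/lpr and 1.83 to 2.40 CPM in MRL/mpj (2 of 5 higher, Mzb1 at 0 in all MRL/mpj libraries), and T cell markers to 9.99 to 14.5 and 2.2 to 2.92 CPM (4 of 5 higher). Ependymal and choroid plexus markers summed to 344 to 359 CPM in MRL/lpr and 1021 to 1100 CPM in MRL/mpj (5 of 7 lower). Most of that sum was Ttr, at means of 302 and 942 CPM. Ttr, Kl, Folr1, Cldn2 and Otx2 were lower, in the direction of Whrn. Foxj1 did not pass the test, nor did Ccdc153, whose log2 fold change was 0.33. Border macrophage markers were at 29.8 to 34.6 and 40.8 to 46.3 CPM (2 of 5 lower). Markers of astrocytes were at 107 to 153 and 183 to 189 CPM (1 of 6 lower). Those of oligodendrocytes were at 130 to 153 and 164 to 195 CPM (2 of 6 lower). Endothelial markers were at 1641 to 1796 and 1474 to 1527 CPM (1 of 6 higher). Monocyte and neutrophil markers were at 307 to 346 and 251 to 292 CPM (1 of 5 higher). These last 4 sets differed by smaller factors than the B and plasma cell, T cell, and ependymal and choroid plexus sets. Mitochondrial genes took 3.06% to 3.49% of counts in MRL/lpr and 5.84% to 6.38% in MRL/mpj. The part of other cell types and of RNA quality in the differences of Kcnip3, Whrn and Msh5 was not tested.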

How the data were processed

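According to the methods and the submitters' processing notes, the authors trimmed reads of sorted microglia with cutadapt 1.9.3 and aligned them with HISAT2 2.0.4 to GRCm38, and Cufflinks and Cuffdiff 2.2.1 are also listed. The counting tool, its annotation and strand setting are not given in the sources used here. The authors deposited raw counts per gene, without normalization, for 6 libraries and FPKM values normalized by them for length and depth.

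From these, genes were filtered with filterByExpr (minimum count 10, minimum total 15), scaled by TMM and tested with edgeR 4.0.16 in R 4.3.3 (quasi-likelihood, robust, no covariates, Benjamini-Hochberg over 19554 genes). CPM values are TMM-scaled, with a prior count of 2 on the log2 scale for correlations. Genes of like level lie within 0.5 log2 units of the mean. Symbols and positions came from GENCODE M21 (55141 of 55401 identifiers matched) and promoters from RefSeq. Named genes were Kcnip3, Whrn and Msh5, the listed relatives and markers, the 5 nearest tested genes on each side of each member, and the 5 most correlated genes among those with a mean CPM of at least 1. The members and lists were chosen with earlier results of these data known. The fit was tested on simulated data. DESeq2 1.42.0, other scaling, no filter, dispersions that are not robust, a replicate block, counts divided by 4, a window of 2 Mb and each library left out were the alternatives. Protein sequences were not used here. Some listed genes are counted but not reported singly here.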

Additional observations from a re-analysis of the deposited data

How the results depend on the processing

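The log2 fold changes of Kcnip3, Whrn and Msh5 kept their direction in all 13 alternatives, with ranges of 4.67 to 4.82, -2.88 to -2.70 and 2.61 to 2.80. Scaling by library size only gave 4.67 for Kcnip3 and -2.88 for Whrn. That scaling moved the median of all genes to -0.13 and the split of calls from 914 up and 716 down (56.1% up) to 766 and 932 (45.1% up). Levels computed from counts with TMM were 13.1 and 0.471 FPKM for Kcnip3, 4.79 and 32.3 for Whrn and 55.5 and 8.34 for Msh5 (MRL/lpr and MRL/mpj), in the same order as the deposited values. The number of called genes was 1398 to 1906 over the alternatives, 1906 with DESeq2, and 1398 to 1650 with single libraries left out. Called neighbours of Kcnip3 numbered 8 of 64 within 2 Mb (12.5%), and those of Whrn within 1 Mb numbered 1 to 3 with single libraries left out. Genes of the related lists that passed numbered 4 to 6 (higher) and 4 to 7 (lower) with single libraries left out, with the fewest higher when MRL/lpr replicate 3 was omitted and the fewest lower when MRL/mpj replicate 2 was. The cause was not tested.

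The strains share replicate numbers, but deviations of same-numbered libraries had correlations of -0.0409, -0.0202 and -0.0325. No shared effect of the number was seen, though this cannot show whether same-numbered libraries were prepared together. A replicate block gave 1422 calls (806 up, 616 down) against 1630, and 1 called neighbour of Whrn. Of the 86 tested relatives and nearest neighbours, 17 changed direction in some alternative, none of them past the threshold, and 10 of 28 that passed lost the call in at least 1. Single markers and the genes most correlated with the members were not run under the alternatives. Near-zero relatives such as Msh4 and Kcnip1 are limited by depth, and a count of 4 may stand for 1 read pair.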
